A study of Rattus norvegicus with 12 samples.

Results

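The 8 genes described here, Fos (ENSRNOG00000008015), Jun (ENSRNOG00000026293), Junb (ENSRNOG00000042838), Egr1 (ENSRNOG00000019422), Egr2 (ENSRNOG00000000640), Btg2 (ENSRNOG00000003300), Dusp1 (ENSRNOG00000003977) and Nr4a1 (ENSRNOG00000007607), are immediate early genes. They were followed in cultured rat oligodendrocyte precursor cells after exposure to tunicamycin. They were picked by gene ID from a deposited table of 32402 genes because earlier results of these data showed several of them high at 2 h of drug and low at 8 h. Their values at both times therefore only describe them. Where a threshold is given as passed or missed by a member, it describes the choice too and does not test it. The pairing of the 8 IDs with symbols came with the list of genes. It could not be checked against the reference table, which holds all 8 symbols but no Ensembl ID.

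The precursor cells came from adult rat spinal cord and were used at passage 1 to 6. Tunicamycin, which blocks N-linked glycosylation in the endoplasmic reticulum, was given at 5 µM for 2 h or 8 h, and control cells received 0 µM for the same times. Each of the 4 groups held 3 libraries of ribosome-depleted total RNA, and the study ran 3 independent experiments of 4 samples. The labels name no strain, sex, line or vehicle, and because the table carries no gene names the cell type could not be checked against its markers.

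Immediate early genes are transcribed within minutes of a stimulus from factors already present in the cell, without new protein synthesis, and their short-lived RNAs usually disappear again soon after. Growth factor signalling through MAP kinases switches many of them on by way of serum response factor, which binds the CArG box, and of CREB family factors, which bind the cyclic AMP response element (CRE). Their products are mostly transcription factors that set the next wave of expression, together with proteins that restrain the signal. In oligodendrocyte precursors mitogens that drive these pathways keep the cells dividing.

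Promoter windows are shown because the CArG box and the CRE are known inputs of many immediate early genes. RefSeq promoter sequence on the rat build GRCr8 matched 6 of the 8 symbols, namely Junb, Egr1, Egr2, Btg2, Dusp1 and Nr4a1. The 250 bases before the annotated start are printed 5′ to 3′ on the strand of the gene, with CArG boxes, CREs and CRE half-sites in capitals.
Junb (chr19:40080876-40081125, plus strand): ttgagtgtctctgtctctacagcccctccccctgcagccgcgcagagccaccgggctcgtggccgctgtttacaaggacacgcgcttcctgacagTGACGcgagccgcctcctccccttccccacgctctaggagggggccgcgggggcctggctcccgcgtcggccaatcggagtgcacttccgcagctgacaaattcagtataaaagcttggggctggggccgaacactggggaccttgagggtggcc
Egr1 (chr18:26736828-26737077, plus strand): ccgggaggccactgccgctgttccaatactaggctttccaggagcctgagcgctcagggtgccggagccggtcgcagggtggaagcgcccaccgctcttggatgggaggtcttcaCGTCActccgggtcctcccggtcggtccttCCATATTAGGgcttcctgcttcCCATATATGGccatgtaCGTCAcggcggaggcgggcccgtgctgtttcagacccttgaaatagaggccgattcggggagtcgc
Egr2 (chr20:21054442-21054691, minus strand): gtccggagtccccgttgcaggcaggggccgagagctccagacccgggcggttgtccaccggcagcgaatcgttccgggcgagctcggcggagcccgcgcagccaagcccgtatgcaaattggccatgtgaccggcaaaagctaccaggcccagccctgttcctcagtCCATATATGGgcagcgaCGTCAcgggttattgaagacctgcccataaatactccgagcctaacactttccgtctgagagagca
Btg2 (chr13:48087691-48087940, minus strand): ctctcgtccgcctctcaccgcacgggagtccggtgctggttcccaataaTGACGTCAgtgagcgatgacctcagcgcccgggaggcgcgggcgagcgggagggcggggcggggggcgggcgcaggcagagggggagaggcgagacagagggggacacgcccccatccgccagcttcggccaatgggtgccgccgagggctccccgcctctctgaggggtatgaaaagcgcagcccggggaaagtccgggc
Dusp1 (chr10:17184603-17184852, plus strand): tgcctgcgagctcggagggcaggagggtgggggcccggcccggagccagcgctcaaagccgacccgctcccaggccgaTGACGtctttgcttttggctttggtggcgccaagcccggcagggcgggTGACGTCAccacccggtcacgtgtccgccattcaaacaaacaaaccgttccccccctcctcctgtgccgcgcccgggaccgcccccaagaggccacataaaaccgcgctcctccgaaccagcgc
Nr4a1 (chr7:134259888-134260137, plus strand): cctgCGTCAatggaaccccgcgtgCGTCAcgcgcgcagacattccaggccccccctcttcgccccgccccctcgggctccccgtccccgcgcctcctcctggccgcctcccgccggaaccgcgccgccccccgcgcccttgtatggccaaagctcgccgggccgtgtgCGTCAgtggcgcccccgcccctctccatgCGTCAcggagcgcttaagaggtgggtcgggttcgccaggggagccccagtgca

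Every one of the 6 windows held at least 1 CRE half-site, searched as TGACG on both strands, which 18.2% of all 33469 RefSeq promoter windows of this length hold. The full CRE, TGACGTCA, contains the half-site on each strand, and it was present in Btg2 and Dusp1 and in 1.59% of all windows. A CArG box was present in Egr1, at 2 places, and in Egr2, at 1 place, and in 1.5% of all windows. In both Egr genes a CArG box lay 83 to 74 bases before the start and a CRE half-site lay 66 to 62 bases before it, so these elements had the same spacing in both. Nr4a1 had 4 half-sites and Junb 1, and neither had a CArG box or a full CRE.

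Motifs of the stress response of the endoplasmic reticulum were looked for in the same windows on both strands. The ERSE, the ERSE-II, the UPRE (TGACGTGG) and a C/EBP-ATF element (TTGCATCA) had a match in 0 of the 6 windows, and in 0.0657%, 0.0418%, 0.52% and 0.693% of all windows. The AP-1 site TGANTCA was in 0 of 6 and in 6.34% of all. CCAAT, which forms part of the ERSE, was in Junb, Egr1, Egr2 and Btg2 and in 34.0% of all windows, and the TATA box TATAAA was in Junb and in 12.9% of all. The windows had 62.0% to 74.8% G and C. A match is a string of letters in the window, and no binding was measured.

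**Figure D1:**
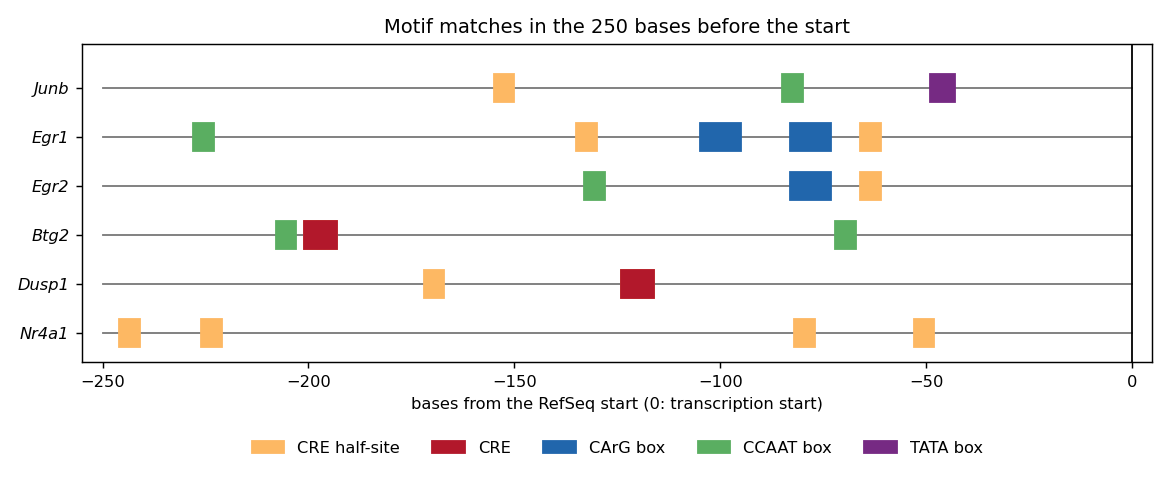
Map of motif matches on either strand in the 250 bases before the RefSeq start of 6 genes, drawn to scale. The horizontal axis is the distance in bases from the start, and each coloured box is 1 match, with a full CRE drawn over its half-sites. Egr1 and Egr2 share a CArG box 83 to 74 bases and a CRE half-site 66 to 62 bases before the start.

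Levels are in FPKM, fragments per kilobase of gene scaled to library size, which allows levels of different genes to be compared per length. Summed FPKM ran from 588250 to 764988 over the 12 libraries, and the depth of a library, in fragments per unit of FPKM, was between 70.5% and 100% of the deepest. Control 8 h replicate 2 stood apart from the rest, with the lowest summed FPKM and the most genes at 1 FPKM or more, 12224 against 11360 to 11600 elsewhere. Log2 effects at 8 h on Egr1 and Nr4a1, the members in which this library deviated most from its group, are given with and without it. All 8 members were above 0 in every library, and all 8 passed the filter of a mean of at least 1 FPKM, which 12056 genes of the table passed. In these bulk samples fewer cells carrying an RNA and less of it per cell cannot be told apart. Log2 fold changes are on the scale log2(FPKM + 1), which understates the change of low genes, and come with standard errors of the limma fit to all 12 libraries.

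In untreated cells all members were already present. Jun, Fos and Egr1 were the most abundant, at means of 56.2, 52.2 and 45.6 FPKM in control at 2 h, and their libraries overlapped. Nr4a1 followed at 22.7 FPKM, above all libraries of Egr2 at 12.8 FPKM and Dusp1 at 11.7 FPKM, which overlapped with each other and with Junb at 7.45 FPKM. Btg2 was lowest at 3.17 FPKM, under every library of Junb. At 8 h the order of the means was the same from Nr4a1 down. Between control at 2 h and control at 8 h the libraries of each of the 8 genes overlapped, and the ratio of the means lay between 1.04 for Nr4a1 and 1.75 for Egr1. The Egr1 value rests on control 8 h replicate 2, and its log2 difference of 0.63 ± 0.46 became 0.11 without that library. Limma at an adjusted p under 0.05 called 0 of the 8 members between the controls, and 0.0249% of all genes tested, and 0 of the 8 had an unadjusted limma p under 0.05, as had 384 of 12056 genes. These controls also enter the comparisons that chose the members.

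**Figure D2:**
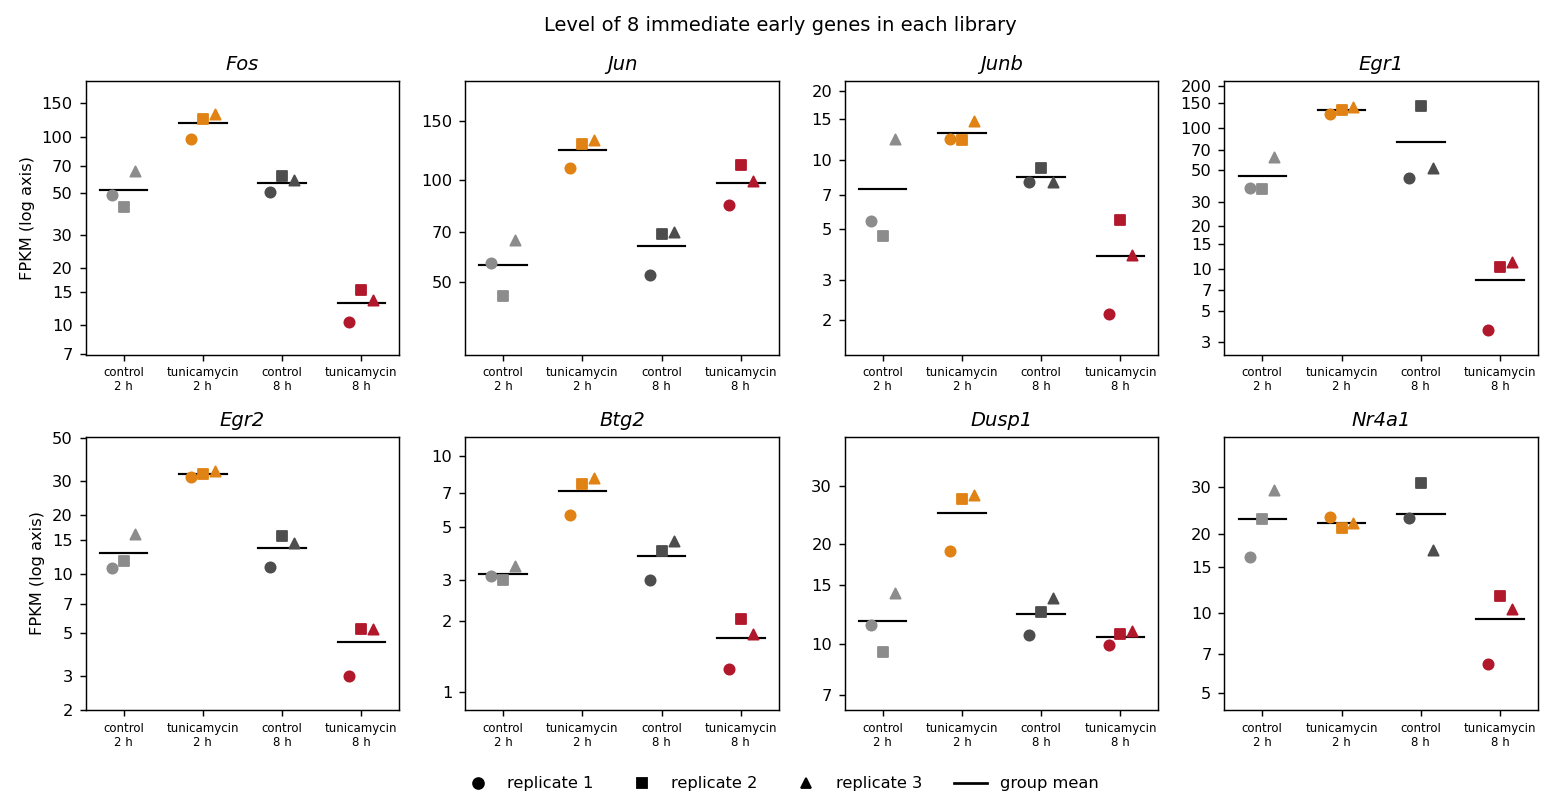
Level of each of the 8 genes in FPKM, on a logarithmic axis with its own range in each panel, in the 3 libraries of each of the 4 groups. Symbols mark the replicate number and bars the group mean. Fos, Egr1, Egr2 and Btg2 lie above control at 2 h and below it at 8 h of tunicamycin, Jun lies above control at both times, and Nr4a1 overlaps with control at 2 h and lies below it at 8 h.

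The members were sorted by whether their treated and control libraries overlapped. Fos, Egr1, Egr2 and Btg2 had all 3 treated libraries above control at 2 h and all 3 below control at 8 h, as were 0.738% of the 12056 genes tested. Jun was above control at both times, as were 5.71% of genes. The other members overlapped with control at 1 of the 2 times and did not share a pattern. Dusp1 was above control at 2 h and overlapped at 8 h, while Junb and Nr4a1 overlapped at 2 h and were below control at 8 h. The shares of all genes like these were not computed. By limma at an adjusted p under 0.05, 5 of the 8 members were called higher at 2 h, where 0.498% of all genes were, and 6 of the 8 were called lower at 8 h, where 15.5% were. Jun alone among the 8 was called higher at 8 h, with 17.8% of all genes. These contrasts chose the members, so the counts describe the choice. Over the 8, the log2 fold changes had medians of 1.07 (2 h) and −1.13 (8 h), beside −0.01 and −0.02 over all genes tested.

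The AP-1 subunits were examined first. Fos protein pairs with Jun family proteins in the dimer AP-1, and it cannot form a stable dimer with itself. Fos stood at 48.8, 42.3 and 65.6 FPKM in control at 2 h and at 97.3, 125 and 132 FPKM in tunicamycin at 2 h. The lowest treated library was above the highest control, and the means differed 2.26-fold. At 8 h Fos stood at 50.8, 61.6 and 58.4 FPKM in control and at 10.4, 15.3 and 13.6 FPKM with tunicamycin, which left 23.0% of the control mean. The treated libraries at 8 h were also below every control library at 2 h. The log2 fold changes were 1.17 ± 0.19 at 2 h and −2.05 ± 0.19 at 8 h, and the mean with tunicamycin was 9.02-fold lower at 8 h than at 2 h.

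Jun, the main partner of Fos and able to form a dimer with itself, shared the early rise and kept much of it. Its control libraries at 2 h had 56.8, 45.4 and 66.4 FPKM and the treated ones 109, 128 and 132 FPKM, without overlap and 2.19-fold apart. At 8 h the controls had 52.3, 69.2 and 70.4 FPKM and the treated libraries 84.7, 111 and 99.6 FPKM, again without overlap and 1.54-fold apart. The log2 fold change was 1.13 ± 0.17 at 2 h and 0.62 ± 0.17 at 8 h, and the treated libraries of the 2 times overlapped. Jun at 8 h was therefore the 1 member of the 8 whose treated mean was above control at that time.

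Junb, a Jun family protein with weaker activation of AP-1 sites than Jun in many settings, was lower and more variable. In control at 2 h it had 5.38, 4.67 and 12.3 FPKM, and with tunicamycin 12.3, 12.2 and 14.7 FPKM. Replicate 3 of the controls reached the treated range, so the groups overlapped at 2 h, and without it the ratio of the means went from 1.75 to 2.60. At 8 h the controls had 8.00, 9.19 and 7.96 FPKM and the treated libraries 2.11, 5.47 and 3.83 FPKM. The treated libraries were all lower, at 45.4% of the control mean. The log2 fold changes were 0.84 ± 0.32 at 2 h and −1.03 ± 0.32 at 8 h.

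Because the 3 subunits moved apart at 8 h, their ratios were taken within each library, where the scaling between libraries cancels. The ratio of Fos to Jun in FPKM was 0.927 ± 0.0649 in control at 2 h, 0.955 ± 0.0541 with tunicamycin at 2 h and 0.897 ± 0.0714 in control at 8 h (mean ± SD, n = 3 each). It was 0.132 ± 0.00829 with tunicamycin at 8 h (SD, n = 3). The highest ratio at 8 h of tunicamycin was 0.137 and the lowest in the other 9 libraries 0.830, so Fos and Jun were near parity per length until they separated at 8 h of drug. The ratio of Junb to Jun ran from 0.0948 to 0.185 in those 9 libraries and from 0.0250 to 0.0492 at 8 h of tunicamycin. A ratio shows unequal change and not which of the pair changed.

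**Figure D3:**
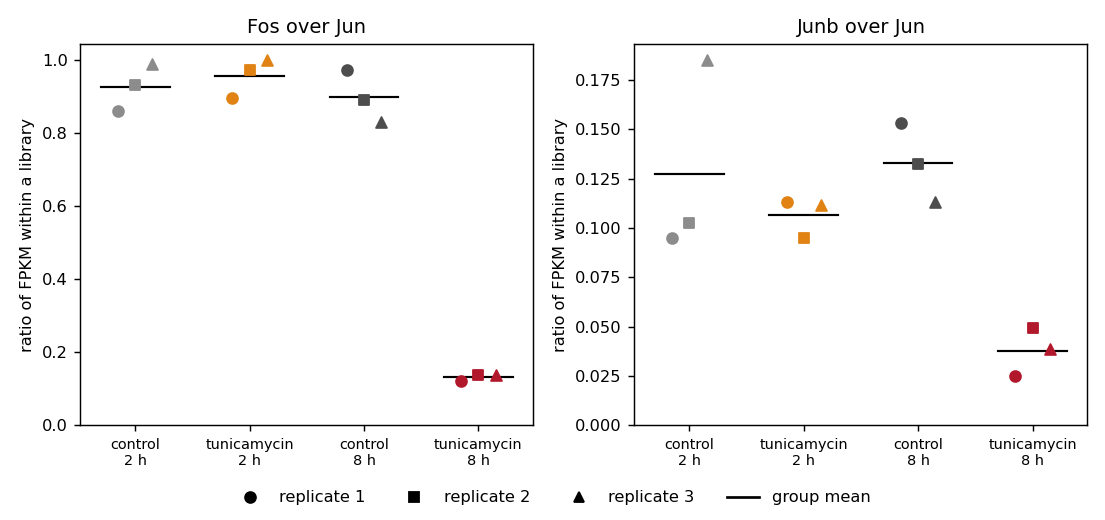
Ratio of Fos to Jun (left) and of Junb to Jun (right) in FPKM within each of the 12 libraries, on axes that start at 0. Symbols mark the replicate number and bars the group mean. The 3 libraries at 8 h of tunicamycin lie at or under 0.137 for Fos and at or under 0.0492 for Junb, below the other 9 in both panels.

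The EGR genes encode zinc finger factors, with Egr1 a general early response factor and Egr2 also known as the regulator of myelin genes in Schwann cells. Egr1 stood at 37.3, 37.1 and 62.3 FPKM in control at 2 h and at 126, 133 and 142 FPKM with tunicamycin at 2 h. The groups did not overlap, and the ratio of the means, 2.93, was the largest of the 8 members at 2 h. At 8 h the controls had 44.2, 144 and 51.9 FPKM and the treated libraries 3.67, 10.2 and 11.2 FPKM. Control 8 h replicate 2 was thus as high as the treated libraries at 2 h, while the treated libraries at 8 h lay below all 6 controls.

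For Egr1 the mean at 8 h was 9.57-fold lower with tunicamycin than in control, and 5.76-fold lower without control 8 h replicate 2. The log2 fold change was −3.03 ± 0.46, the 17th lowest of 12056 genes, and without that library it was −2.51. With tunicamycin the mean was 134 FPKM at 2 h and 8.35 FPKM at 8 h, a ratio of 16.0. At 2 h the log2 fold change was 1.57 ± 0.46. Egr1 was not among the members called at 2 h. Its standard error, shared by all groups of the fit, was 0.35 without control 8 h replicate 2 and 0.22 when the 2 h libraries were fitted alone. It was not called in these 2 fits either, nor in any other of the 19 alternative fits.

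Egr2 had the tightest treated group at 2 h, with 31.6, 32.7 and 33.8 FPKM against 10.8, 11.7 and 16.0 FPKM in control. These groups were 2.55-fold apart. At 8 h it had 10.8, 15.7 and 14.4 FPKM in control and 2.99, 5.21 and 5.20 FPKM with tunicamycin, all lower and at 32.8% of the control mean. The log2 fold changes were 1.30 ± 0.20 and −1.43 ± 0.20. Within libraries the ratio of Egr1 to Egr2 was 4.08 ± 0.108 at 2 h of tunicamycin and 1.78 ± 0.486 at 8 h (SD, n = 3 each). In control it was 3.51 ± 0.356 at 2 h and 5.62 ± 3.08 at 8 h (SD, n = 3 each), where replicate 2 stood at 9.16 and the others at 4.09 and 3.61. All 3 ratios at 8 h of tunicamycin, 1.23 to 2.15, were below the lowest of the 6 control ratios, 3.18.

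Btg2 and Dusp1, the 2 members with a full CRE in the window, encode proteins that restrain growth signals. Btg2 is an antiproliferative cofactor that recruits the deadenylase complex and is known as a target of p53. It had 3.10, 2.99 and 3.43 FPKM in control at 2 h and 5.64, 7.62 and 8.06 FPKM with tunicamycin, 2.24-fold higher and without overlap. At 8 h it had 2.99, 3.95 and 4.37 FPKM in control and 1.26, 2.04 and 1.77 FPKM with tunicamycin, which was 44.9% of the control mean and below every control. The log2 fold changes were 0.95 ± 0.16 and −0.83 ± 0.16. Btg2 was the lowest of the members, so the added 1 FPKM weighs most here, and with 0.1 FPKM added the log2 fold changes were 1.12 at 2 h and −1.12 at 8 h.

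Dusp1 is a nuclear phosphatase that inactivates the MAP kinases. Its treated libraries were above control at 2 h and overlapped with control at 8 h. At 2 h it had 11.4, 9.47 and 14.3 FPKM in control and 19.0, 27.3 and 28.1 FPKM with tunicamycin, 2.12-fold higher and without overlap. At 8 h the controls had 10.7, 12.5 and 13.8 FPKM and the treated libraries 9.90, 10.7 and 10.9 FPKM. These overlapped, with the treated mean at 85.4% of control. The log2 fold changes were 1.02 ± 0.17 and −0.20 ± 0.17. A p that misses the threshold does not show equal levels, and the 95% limma interval of the value at 8 h ran from −0.58 to 0.17.

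Nr4a1, an orphan nuclear receptor that is itself a classic early response gene, was the 1 member whose mean at 2 h was not above control. It stood at 16.3, 22.7 and 29.2 FPKM in control at 2 h and at 23.1, 21.0 and 21.9 FPKM with tunicamycin, so the treated libraries lay inside the control range. At 8 h it had 22.9, 31.0 and 17.4 FPKM in control and 6.45, 11.6 and 10.4 FPKM with tunicamycin. All treated libraries were then lower, at 40.0% of the control mean. The log2 fold changes were −0.01 ± 0.26 at 2 h and −1.24 ± 0.26 at 8 h, and the value at 2 h changed sign in 4 of 19 alternative fits. The difference between the effects at the 2 times, −1.22 ± 0.37, did not pass the limma threshold. Without control 8 h replicate 2 the log2 fold change at 8 h was −1.03 and this difference was −1.02.

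The effects at the 2 times were then compared, a pattern on which the members were chosen. In every member the effect of tunicamycin had a lower point estimate at 8 h than at 2 h, from −0.51 ± 0.24 for Jun to −4.60 ± 0.66 for Egr1 on the log2 scale. For Fos the difference was −3.22 ± 0.26, for Egr2 −2.74 ± 0.28, for Junb −1.87 ± 0.46, for Btg2 −1.77 ± 0.23 and for Dusp1 −1.22 ± 0.24. The difference for Egr1 was −4.08 without control 8 h replicate 2. With all libraries, 6 of the 8 had a difference called downward by the limma interaction, against 5.76% of all genes tested, and Jun and Nr4a1 did not. This split was not firm, since Junb lost the call in 5 of 18 alternative fits and Nr4a1 gained it in 4 of 18. Among the treated libraries, those of Jun at the 2 times overlapped, and in the other members those at 8 h lay below those at 2 h. The share of all genes with such a fall was not computed, and the members were chosen on this pattern. At 8 h of tunicamycin Jun, at 98.5 FPKM, was far above the next member, Fos at 13.1 FPKM, which overlapped with Dusp1 at 10.5 and Nr4a1 at 9.49 FPKM.

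**Figure D4:**
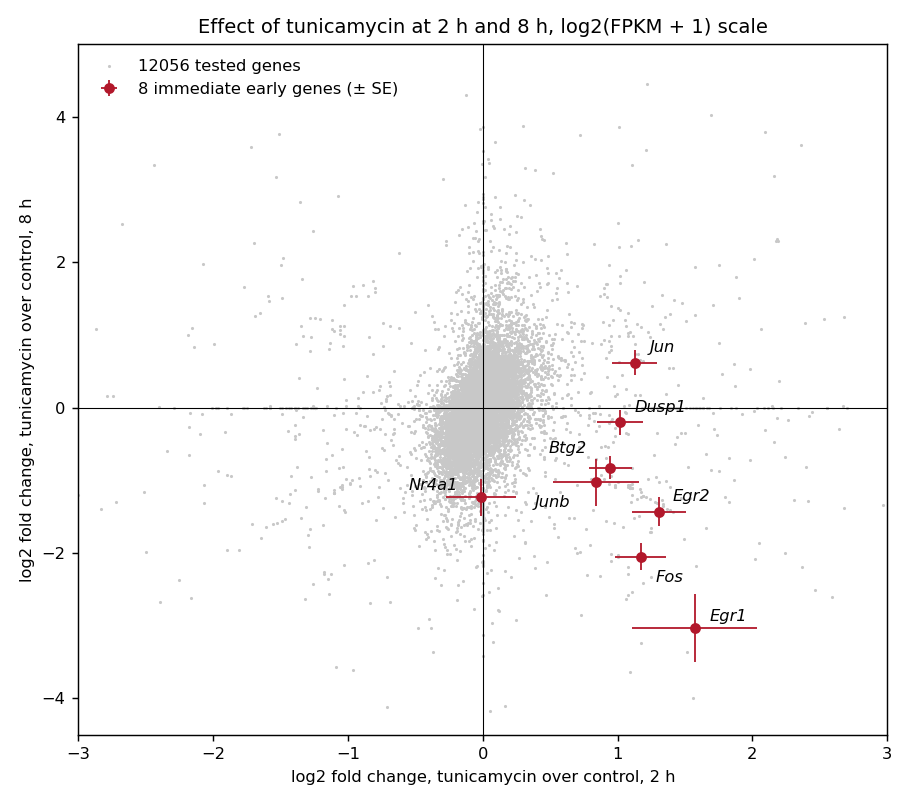
Log2 fold change of tunicamycin over control at 2 h (horizontal axis) and 8 h (vertical axis) on the log2(FPKM + 1) scale, for the 12056 tested genes in grey and the 8 members in red with bars of 1 standard error. The axes leave out 19 genes. The members other than Nr4a1 lie right of 0, and those other than Jun lie below 0, with Egr1 lowest at −3.03.

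Over all genes tested, 4 were called higher at 2 h and lower at 8 h by limma, 0.0332% of those tested, and Fos, Egr2 and Btg2, chosen with this in view, were 3 of them. The calls at 2 h depended on single libraries. Without control 2 h replicate 1 or 2, or tunicamycin 2 h replicate 2 or 3, 0 of the 8 members were called at 2 h, and without tunicamycin 2 h replicate 1 only Dusp1 was. Without control 2 h replicate 3 or tunicamycin 8 h replicate 1 there were 4, and without tunicamycin 8 h replicates 2 and 3 there were 3 and 1. Calls over all 12056 genes fell as well, from 67 at 2 h with all libraries. There were 18 without control 2 h replicate 1, 18 without its replicate 2 and 35 without its replicate 3. Without tunicamycin 2 h replicates 1, 2 and 3 there were 19, 21 and 23. The loss of calls was therefore not particular to the members. The point estimates of the called members moved far less. Over these 6 libraries of the 2 h comparison, the ratio of means for Fos stayed between 2.06 and 2.59 and for Egr2 between 2.36 and 2.91. The ratio moved most for 2 members not called at 2 h, from 1.48 to 2.60 for Junb and from 2.68 to 3.59 for Egr1. A call depends on the spread between libraries, so steadier ratios in the called members follow in part from the calls. At 8 h between 5 and 7 members were called when 1 library was left out, where 4016 of all 12056 genes were called with all libraries. Jun lost its call there without control 8 h replicate 1 or tunicamycin 8 h replicate 2 or 3, and Junb lost it without any 1 of the 6 libraries at 8 h other than tunicamycin 8 h replicate 2.

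Summed FPKM was lower in the treated libraries at 2 h, 690766 to 696233, than in their controls, 705097 to 752027. With every library rescaled to the same sum, the log2 fold changes at 2 h were 1.25 for Fos and 1.65 for Egr1, against 1.17 and 1.57 as deposited, and limma then called Jun alone at 2 h, as it did without the filter on low values. Over all genes tested, 52 of 12056 were called at 2 h with the rescaling and 49 of 25860 without the filter. Quantile normalization ended the call of Btg2 at 2 h, and 0 of the 8 members were called when the 2 h libraries were fitted alone. At 8 h the call of Jun was lost with rescaling (log2 fold change 0.57), with quantile normalization (0.51) and when the 8 h libraries were fitted alone (0.62). The call of Junb at 8 h was lost without the filter and when the 8 h libraries were fitted alone.

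The members also varied together among replicates of the same group. The genes were chosen by group levels, but this measure comes from the same values and was added after they had been seen. Deviations of each library from its group mean were taken on the log2(FPKM + 1) scale. In control 2 h replicate 3 all 8 members were the highest of their group, with a median deviation of 0.33. In tunicamycin 8 h replicate 1 all 8 were the lowest of theirs, with a median of −0.36. Tunicamycin 2 h replicate 3 was highest for 7 of 8, all but Nr4a1, and control 2 h replicate 2, control 8 h replicate 1 and tunicamycin 2 h replicate 1 were each lowest for 6 of 8. The replicates thus differed by a shift common to most members. The share of all genes that were highest or lowest in these libraries was not computed, so these counts alone do not set the members apart from other genes. Replicate 1 was on the low side in all 4 groups, with mean deviations over the 8 members of −0.157 and −0.149 in control and tunicamycin at 2 h and −0.233 and −0.393 at 8 h, and with 1, 1, 0 and 0 of the 8 members above the group mean. With the replicate number as a block in the fit, the standard error of the log2 fold changes went from 0.20 to 0.14 for Egr2 and from 0.19 to 0.15 for Fos, was lower for the other members too, and the same members were called.

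Over the 12 libraries the correlation of these deviations was above 0 in all 28 pairs of members, with a median Pearson r of 0.74. The median was 0.78 without control 8 h replicate 2. Between members and all other tested genes the median r was −0.0018, and over all pairs of tested genes it was 0.0017. Fos and Jun had the highest value, 0.93, and Dusp1 and Nr4a1 the lowest, 0.13. These points share libraries and the scaling of each library, so the values are a description over 12 libraries with no test. The deepest library by fragments per unit of FPKM was tunicamycin 2 h replicate 3, and tunicamycin 8 h replicate 1 had 72.0% of its depth. Among the controls at 2 h, replicate 3 was the deepest at 89.9%, against 85.2% and 70.5%. Depth and shift did not go together in every group: control 8 h replicate 1, lowest for 6 of 8, was the deepest of its group at 78.7%, against 75.0% and 75.1%, and tunicamycin 2 h replicate 1, also lowest for 6 of 8, had 78.8% against 78.2% in replicate 2. The part of depth in these shifts was not tested.

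**Figure D5:**
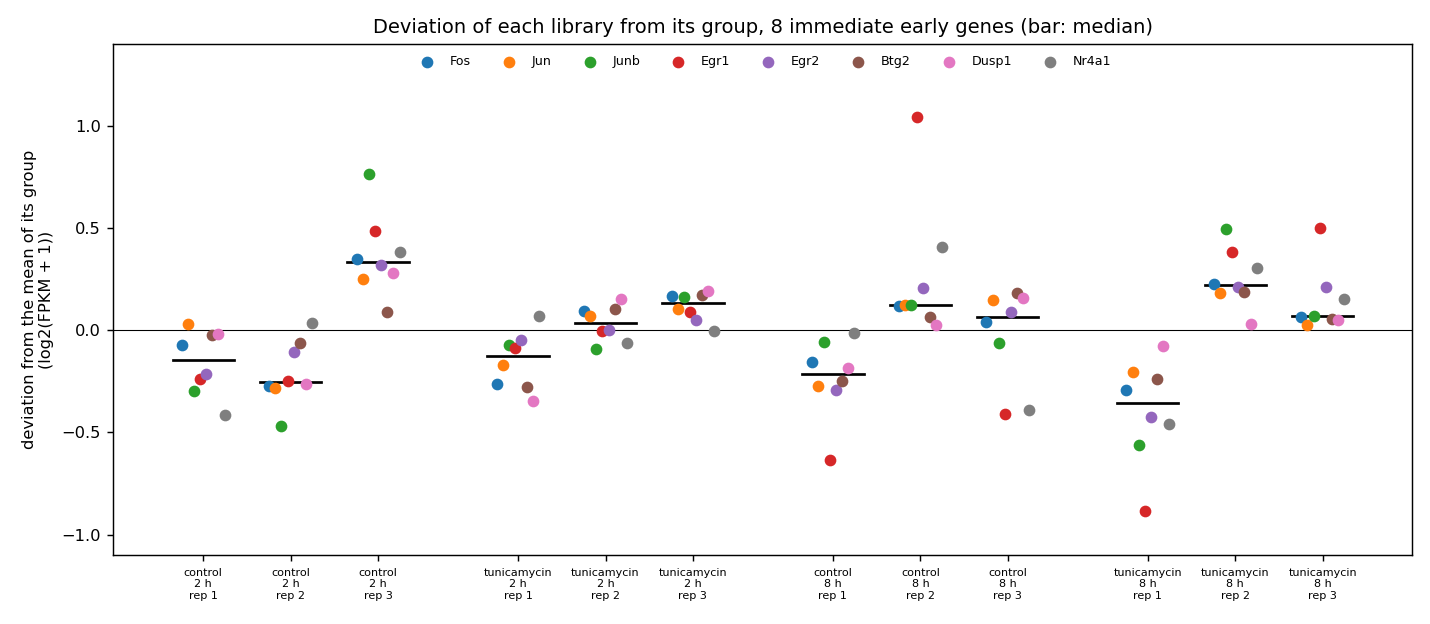
Deviation of each library from the mean of its group on the log2(FPKM + 1) scale, with 1 coloured point for each of the 8 genes and a bar at their median. In control 2 h replicate 3 all points lie above 0 (median 0.33) and in tunicamycin 8 h replicate 1 all lie below 0 (median −0.36), and the single highest point is Egr1 in control 8 h replicate 2, at 1.04.

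Genes with the most similar profile were sought over all 12 libraries, by Pearson correlation of log2(FPKM + 1) among 11209 other genes that were above 0 in every library. The reference pairs none of their IDs with a symbol, so they are given as counts. Fos had 110 genes at r of 0.9 or more, Egr1 54, Egr2 29, Btg2 11, Jun 10, Junb 7 and Dusp1 3. Nr4a1, whose levels differed mainly at 8 h, had 293. Among all genes, the one most like Egr2 was Fos, at r = 0.98, and the one most like Btg2 was Egr2, at r = 0.98. Jun was unlike the rest, with Dusp1 as its nearest member at r = 0.69. These correlations come mostly from differences between the 4 groups, on which the members were chosen.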

How the data were processed

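The authors deposited 1 table of FPKM values for 32402 Ensembl rat genes in 12 libraries, made, per the labels' protocols, with a stranded total RNA kit after ribosomal RNA removal and sequenced on an Illumina NextSeq. The submitters' processing notes list, without roles, Cuffnorm, Cuffdiff 2.1.1, Cufflinks 2.2.1, TopHat2 2.0.4, FastQC 0.10.1 and the build rn6. How fragments were assigned to genes is not stated in these sources. Columns were matched to samples by treatment, time and replicate number.

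A filter of 1 FPKM or more on the mean of all libraries was applied, and values were transformed to log2(FPKM + 1). Group means of all 12 libraries were fitted with limma 3.58.1 in R 4.3.3, with a variance trend, 8 residual and 2.01 prior degrees of freedom, and Benjamini-Hochberg adjustment over 12056 genes (threshold 0.05). The fit was tested on simulated data. Absolute depth is unknown, and relative depth was the most common ratio of values under 1 FPKM to control 2 h replicate 1. In the deposited columns the sample numbers run in sets by replicate number, but no label ties a replicate number to a culture. Errors of the main fit, which has no replicate block, measure the spread between these samples.

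The rule for named genes took the 8 members, and the members and lists were chosen with earlier results of these data known. The lists of other immediate early genes, stress genes and cell type markers have no result, since 0 of 47357 reference genes carry an Ensembl ID. Motifs were searched in RefSeq promoters of GRCr8, a different build, matched by symbol. The motifs, the ratios within libraries, the deviations between replicates and the ratios of means with a library left out were added after the values had been seen. Alternatives were pseudocounts of 0.1 and 5, no filter, only the libraries of a comparison, the replicate block, quantile normalization, each library left out and, added after seeing the data, rescaling to the same sum.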

Additional observations from a re-analysis of the deposited data

Results flagged for a closer look

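For 1595 of 12056 genes tunicamycin acted differently at 8 h than at 2 h by the limma interaction (adjusted p under 0.05), a difference between the time points. Among them 901 had a higher and 694 a lower effect at 8 h, and with libraries rescaled to the same sum the split was 633 higher and 878 lower. That rescaling moved the median of this difference over all genes from −0.01 to −0.11 on the log2 scale. Fos, Junb, Egr1, Egr2, Btg2 and Dusp1 were among the genes with a lower effect, and they were chosen on this pattern.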

How the results depend on the processing

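All alternatives kept the sign of every member called at 2 h or 8 h. Of 600 values of members under the alternatives, 10 changed sign, all for uncalled differences (Nr4a1 at 2 h, and Dusp1, Egr2 and Nr4a1 between the controls), 64 lost the call and 4 gained it. The count at 2 h, 67 genes, was 30 with only the 2 h libraries, 32 with the replicate block and 40 after quantile normalization, with 0, 5 and 4 members called. Leaving out single libraries gave 18 to 114 genes at 2 h, 3044 to 5042 at 8 h (4016 with all), 1069 to 2657 for the difference between the times (1595 with all) and 2 to 9 between the controls (3 with all). The highest counts at 2 h, 8 h and for the difference came without control 8 h replicate 2. Only the 8 h libraries gave 2591 genes at 8 h, and a pseudocount of 5 gave 1 gene between the controls. With that pseudocount the log2 fold changes of Btg2 shrank to 0.56 and −0.39 and that of Junb at 8 h to −0.62.

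The replicate block called the same members as the fit without it. The main fit did not use the replicate numbers as pairs, because no label says that a number marks an experiment. Over all genes tested, same-numbered libraries shared little, with correlations of their deviations between treated and control from −0.08 to 0.10. Among the 8 members replicate 1 was on the low side in all 4 groups. Relative depth is known only per unit of FPKM, so the counting error of the lowest members, Btg2 and Junb, cannot be given.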

Other observations

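The fourth gene called higher at 2 h and lower at 8 h, ENSRNOG00000054259, has no symbol here and was singled out after its values were seen. It had 4.51 ± 0.454 FPKM in control and 6.97 ± 0.365 FPKM with tunicamycin at 2 h, and 3.89 ± 0.307 and 2.65 ± 0.0642 FPKM at 8 h (mean ± SD, n = 3 each). Its log2 fold changes, 0.54 and −0.42, were smaller in size than those of Fos, Egr2 and Btg2.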
